A study of Arabidopsis thaliana with 6 samples.

Results

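The genes described here encode 10 subunits that each belong to 1 subclass of the plant SWI/SNF chromatin remodelling complex. They were taken by locus from the 38064 genes of the deposited count table, and all 10 passed the filter on low counts, with 20791 genes tested in all. SWI/SNF complexes use the energy of ATP to slide or evict nucleosomes, and in Arabidopsis they are assembled in 3 subclasses around different ATPases. The BRM-associated complex holds the bromodomain proteins BRD1, BRD2 and BRD13, whose bromodomains read acetylated histones, and the BRM-interacting proteins BRIP1 and BRIP2. The SYD-associated complex holds SYS1, SYS2 and SYS3. The complex around the minor ATPases CHR12 and CHR23 holds the triple PHD finger proteins TPF1 and TPF2, PHD fingers being modules that bind histone tails.

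RNA was sequenced from Arabidopsis thaliana seedlings raised for 5 days at 22 °C without light. The 3 wild-type libraries were of the accession Col-0, and the 3 mutant libraries were of bdh1-1 bdh2-1, with mutations in the genes of both BCL-domain homologs, plant relatives of the animal BCL7 subunits. The sample labels name seedlings as the material, while the text on the design speaks of hypocotyls. Nothing in the labels says whether the replicates were separate cultures, so p-values measure only the spread between these libraries. The allele type and the number of independent lines behind the mutant are not given in the sources used here, and the mutant is 1 combination of alleles.

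Library totals lay between 40876788 and 44982000 counts. The mutated loci BDH1 and BDH2 were at 3.21 to 3.74 and 13 to 16.4 CPM (the count relative to the library total, scaled by TMM library factors) in the wild type and at 0.182 to 0.347 and 0.159 to 0.509 CPM in the mutant. PORA, the protochlorophyllide reductase gene that marks dark-grown tissue, was at 506.2 to 607.4 CPM in the wild type and 712.6 to 1212 CPM in the mutant. All 5 root hair markers had counts somewhere but 3 were at 0 in some library, and their summed level was 0.487 to 5.36 CPM in the wild type and 1.4 to 2.52 CPM in the mutant. The 3 light-harvesting markers summed to 7814 to 9160 CPM in the wild type and 5952 to 7696 CPM in the mutant. Most of this sum was LHCB1.3, with means of 7612.3 CPM in the wild type and 6363.5 CPM in the mutant. LHCB1.1 went from 430 to 113 CPM and LHCB1.2 from 413 to 128 CPM (means, n = 3 each). The 3 seed maturation markers summed to 0.442, 38.7 and 89.2 CPM in the wild type (replicates 1, 2 and 3) and to 0.547 to 1.71 CPM in the mutant. The part of these differences in the results below was not tested, and in whole tissue fewer cells of a type and less RNA per cell cannot be told apart.

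The libraries also differed by transcript length. Across 16873 genes, which are not independent replicates, Spearman's rho between exonic length and a gene's deviation from its mean was 0.447, 0.0991 and 0.317 in the wild-type libraries, in the order of their numbers. It was -0.333, -0.0829 and -0.460 in those of the mutant. Longer transcripts thus tended to lie above their means in each wild-type library and below them in each mutant library, most of all in wild-type replicate 1 and mutant replicate 3. The subunit genes are long: exonic length was 5325 bases for SYS1, 5299 for SYS3, 4175 for SYS2 and 3913 for BRD13, against a median of 1758 over the tested genes, and only BRIP1 (1299) was below that median. For this reason the log2 fold change of each gene is given beside its value from a fit in which the length trend of each library was taken out. Levels, family sums and shares are per kb of exon, and the length trend of the libraries is not taken out of them.

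The names used here are those of the plant chromatin literature. The deposited table and the RefSeq annotation of TAIR10.1 give the loci only, and the pairing of name and locus rests on knowledge of that literature. On that annotation the SYS genes lie close together on chromosome 5, SYS1 (AT5G07940) at chr5:2533581-2540421 on the plus strand, SYS2 (AT5G07970) at chr5:2543742-2548829 and SYS3 (AT5G07980) at chr5:2549038-2555724 on the minus strand. The 3 genes span 22144 bases, and SYS2 and SYS3 are 208 bases apart. BRD1 (AT1G20670, chr1:7164082-7168041) and BRD2 (AT1G76380, chr1:28651069-28654660) are on the minus strand of chromosome 1, and BRD13 (AT5G55040, chr5:22326940-22332078) is on the minus strand of chromosome 5. BRIP1 (AT3G03460, chr3:822896-824546) and BRIP2 (AT5G17510, chr5:5769318-5772481) are both on the minus strand. TPF1 (AT3G08020, chr3:2557437-2561848) is on the minus strand and TPF2 (AT3G52100, chr3:19319223-19322985) on the plus strand.

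The copies of a family are related but distinct in sequence. In a global alignment of the longest annotated proteins, SYS1 and SYS3 (1526 and 1501 residues) were identical at 83.4% of aligned positions, SYS1 and SYS2 (1097 residues) at 74.0%, and SYS2 and SYS3 at 75.1%. BRIP1 and BRIP2 were identical at 76.2%, BRD1 and BRD2 at 73.1%, TPF1 and TPF2 at 55.8%, and BRD13 shared only 32.5% with BRD1 and 35.8% with BRD2. The longest stretch of identical coding bases within any family was 87 bases, between SYS1 and SYS3. It is shown because a read that lies wholly inside it cannot be assigned to 1 of these 2 genes, and it lies in the coding sequence of SYS1 at chr5:2535381-2535467, plus strand.
SYS1 and SYS3 shared coding run: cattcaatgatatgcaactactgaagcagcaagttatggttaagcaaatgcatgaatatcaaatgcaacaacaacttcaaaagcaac
In the other families the longest such stretch was 39 bases (BRD1 and BRD2) or shorter.

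The sequences upstream of the annotated start are shown for the SYS genes, which form the cluster and include SYS1 and SYS3, past the threshold as lower, and for BRD2 and BRD13, the pair with the widest difference in ratio. They are read 5′ to 3′ on the gene's strand from TAIR10.1 and cover the 250 bases before the start, except for SYS2, where the 208 bases up to SYS3 are given. Their positions are chr5:2533331-2533580 (plus strand), chr5:2548830-2549037, chr5:2555725-2555974, chr1:28654661-28654910 and chr5:22332079-22332328 (minus strand). Capitals mark matches on either strand to the G-box CACGTG, a site of light-signalling bZIP and bHLH factors, to the Site II element TGGGCC, a site of TCP factors in the promoters of growth genes, and to the TATA motif TATAAA.
SYS1: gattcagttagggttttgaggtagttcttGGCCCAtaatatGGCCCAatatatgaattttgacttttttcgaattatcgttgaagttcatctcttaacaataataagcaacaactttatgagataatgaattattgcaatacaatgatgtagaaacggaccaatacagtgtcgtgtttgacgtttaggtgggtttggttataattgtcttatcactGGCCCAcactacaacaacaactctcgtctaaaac
SYS2: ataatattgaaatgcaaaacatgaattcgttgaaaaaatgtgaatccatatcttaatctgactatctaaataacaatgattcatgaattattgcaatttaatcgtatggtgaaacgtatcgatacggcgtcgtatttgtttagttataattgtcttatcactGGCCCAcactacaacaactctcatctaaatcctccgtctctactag
SYS3: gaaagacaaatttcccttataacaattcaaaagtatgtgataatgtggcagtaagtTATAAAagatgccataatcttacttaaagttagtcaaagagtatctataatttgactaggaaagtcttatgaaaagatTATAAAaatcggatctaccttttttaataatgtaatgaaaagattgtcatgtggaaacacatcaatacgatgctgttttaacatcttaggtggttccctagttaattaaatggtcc
BRD2: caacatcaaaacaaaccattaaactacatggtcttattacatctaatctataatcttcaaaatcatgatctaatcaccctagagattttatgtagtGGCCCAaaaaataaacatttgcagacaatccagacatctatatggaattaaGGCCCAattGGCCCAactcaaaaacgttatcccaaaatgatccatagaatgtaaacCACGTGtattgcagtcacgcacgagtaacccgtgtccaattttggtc
BRD13: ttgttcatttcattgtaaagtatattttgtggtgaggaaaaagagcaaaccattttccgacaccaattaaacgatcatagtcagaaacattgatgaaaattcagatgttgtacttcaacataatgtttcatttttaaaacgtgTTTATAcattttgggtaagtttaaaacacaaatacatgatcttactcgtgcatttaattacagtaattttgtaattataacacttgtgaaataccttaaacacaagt
No match overlapped another in these windows. SYS1 and SYS2 share an identical stretch of 38 bases around a Site II match, which starts 54 bases before the start of SYS1.
Shared upstream run of SYS1 and SYS2: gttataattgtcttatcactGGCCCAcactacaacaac
SYS3 held no Site II match, and the longest stretch it shared with the upstream window of SYS1 or SYS2 was 8 bases. Of the 10 genes, 5 had a Site II match within 250 bases (BRD1, BRD2, BRIP1, SYS1 and SYS2), where 11.4% of 37897 annotated nuclear genes had one. Those 37897 genes are of every type, expressed or not, while the 10 are expressed and protein-coding, so the comparison is not of like with like. A G-box was found for 3 of the 10 against 5.39% of all, and a TATA motif for 4 of the 10 against 44.6%. The windows of BRIP1, BRIP2, TPF2 and SYS2 reach into a neighbouring protein-coding gene, and that of SYS3 into the non-coding locus AT5G01465. For BRIP1 only 5 of the 250 bases lie outside the neighbour AT3G03470, so both Site II matches of BRIP1 lie within that gene. These matches are a description of letters and not of binding.

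Per kilobase of exon, 9 of the 10 genes were expressed at levels near the middle of all genes. In the wild type BRD13 was highest, at 12.5 ± 3.26 CPM per kb (SD, n = 3), which is the 62.6th percentile of 20693 genes. It was followed by TPF1 (9.0 ± 0.746), TPF2 (8.27 ± 0.724), BRD1 (8.10 ± 1.36), SYS2 (7.63 ± 0.959), BRIP2 (7.36 ± 1.08), BRD2 (7.19 ± 1.27), SYS1 (6.45 ± 1.11) and SYS3 (4.0 ± 0.904), all in CPM per kb (SD, n = 3). From TPF1 to SYS1 each gene differed from its neighbour in this order by less than the larger of their SDs. BRIP1 stood apart at 0.643 ± 0.341 CPM per kb (SD, n = 3), the 11th percentile, and BRD13 was 19.5 times as high as BRIP1. BRIP1 and BRIP2 encode near relatives, yet BRIP2 made up 92.2% ± 2.89 (SD, n = 3) of their joint level per kb in the wild type.

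**Figure D1:**
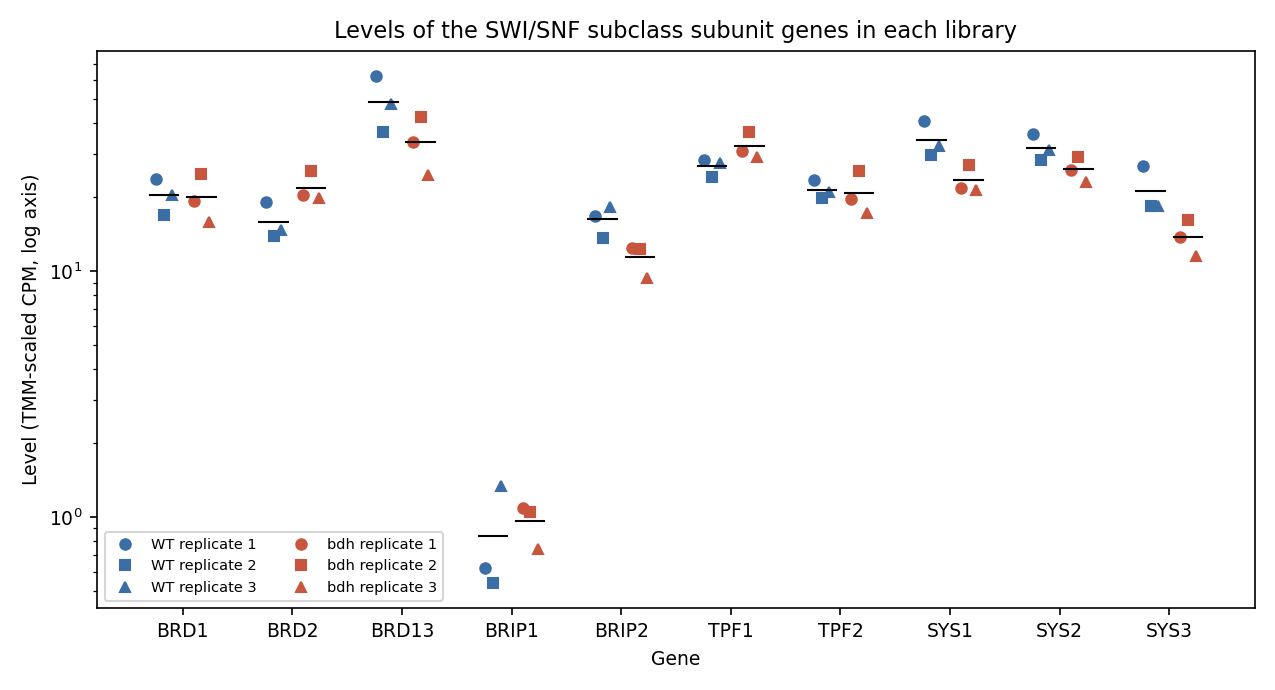
Level of each gene in each of the 6 libraries, in TMM-scaled CPM on a log axis; symbols are replicates, colours are genotypes, and bars are group means (n = 3 each). BRIP1 lies far below the others, and for BRD2, BRIP2, TPF1, SYS1 and SYS3 the wild-type and mutant points do not overlap.

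In the comparison of the mutant with the wild type, 4 of the 10 genes passed the threshold, an adjusted p under 0.05 by the quasi-likelihood test of edgeR (Benjamini-Hochberg, over all tested genes). Of all tested genes 23.5% passed it, 12.1% higher and 11.3% lower. BRD2 was the 1 that rose, and SYS1, SYS3 and BRIP2 were the 3 that fell. The median log2 fold change of the 10 was -0.17, against 0.000924 over all tested genes, with single values from -0.62 to 0.46. For 5 of the 10 the CPM values of wild type and mutant were fully apart, 2 higher (BRD2, TPF1) and 3 lower (BRIP2, SYS1, SYS3) in the mutant. The same held for 41.3% of all tested genes, 20.8% higher and 20.5% lower. With length offsets 3 of the 10 passed, 2 higher (BRD2, TPF1) and 1 lower (BRIP2), against 20.1% of all genes in that fit, 10.2% higher and 9.87% lower, and the median of the 10 was 0.025 (all genes -0.0072). Of 10 genes these counts are not far from the background in either fit. Among those past the threshold, 3 of 4 were lower without the length correction and 1 of 3 with it.

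**Figure D2:**
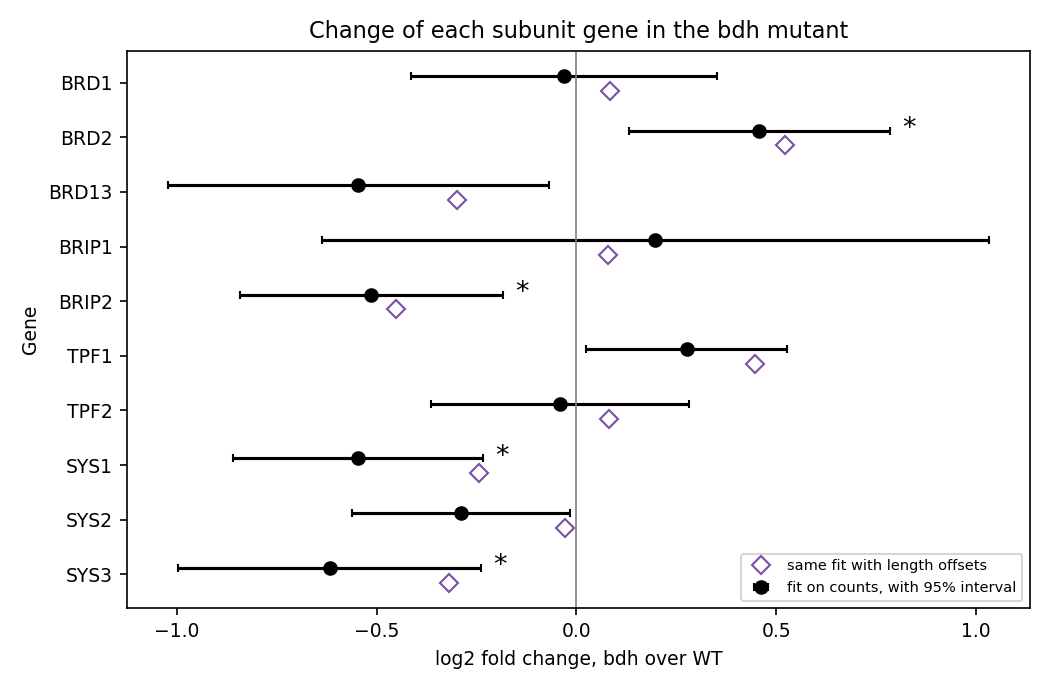
Log2 fold change of each gene, mutant over wild type (x axis), from the fit on counts with its 95% interval (filled points) and from the same fit with length offsets (open diamonds, no interval drawn). Asterisks mark an adjusted p under 0.05 in the fit on counts: BRD2 is higher and BRIP2, SYS1 and SYS3 are lower, and with length offsets the SYS genes move towards 0.

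The SYS genes, the subunits of the SYD-associated complex, were all lower in the mutant, SYS1 and SYS3 past the threshold and SYS2 not. Values of single libraries are given below in the order of replicates 1, 2 and 3. SYS1 was at 41, 29.7 and 32.3 CPM in the wild type and at 21.9, 27.2 and 21.5 CPM in the mutant. All 3 mutant libraries lay below all 3 wild-type libraries, with mutant replicate 2 nearest to them. The log2 fold change of SYS1 was -0.55 (SE 0.14; edgeR adjusted p 0.0213). SYS3 was at 26.7, 18.4 and 18.5 CPM in the wild type and at 13.8, 16.1 and 11.6 CPM in the mutant, again without overlap and with wild-type replicate 1 the highest. Its log2 fold change was -0.62 (SE 0.17; edgeR adjusted p 0.0283). SYS2 was at 36.2, 28.3 and 31.1 CPM in the wild type and at 25.9, 29.3 and 23.0 CPM in the mutant, where mutant replicate 2 lay above wild-type replicate 2. Its log2 fold change was -0.29 (95% interval -0.56 to -0.016; edgeR adjusted p 0.112). Summed per kb, the 3 genes were at 18.1 ± 2.95 CPM per kb in the wild type and 13.3 ± 1.74 CPM per kb in the mutant (SD, n = 3 each), without overlap and with no test. Single genes did not overlap in 41.3% of those tested.

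The falls of SYS1 and SYS3 depended on the libraries and on length. Without wild-type replicate 1, mutant replicate 1 or mutant replicate 3 neither passed the threshold, with edgeR adjusted p from 0.0620 to 0.103. With length offsets the log2 fold change was -0.25 for SYS1 (edgeR adjusted p 0.10), -0.32 for SYS3 (0.0896) and -0.029 for SYS2 (0.840). SYS1 overlaps AT5G07950 on the opposite strand by 138 exonic bases, 2.59% of its own, and that gene was not lower in the mutant (9.91 ± 0.584 against 12.3 ± 0.682 CPM, SD, n = 3 each; edgeR adjusted p 0.0579). SYS3 overlaps the non-coding loci AT5G01455 (opposite strand, 296 exonic bases) and AT5G01465 (same strand, 172 exonic bases). Both were listed at 0 in all 6 libraries. Strand cannot separate reads of SYS3 from those of AT5G01465. Whether the counting used strand is not given in the sources used here.

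The bromodomain genes of the BRM-associated complex did not move together. BRD2 rose, from 19.2, 13.9 and 14.8 CPM in the wild type to 20.4, 25.5 and 19.8 CPM in the mutant. Every mutant value lay above every wild-type value, though mutant replicate 3 exceeded wild-type replicate 1 only narrowly. The log2 fold change was 0.46 (SE 0.15; edgeR adjusted p 0.0474), and 0.52 with length offsets (0.0197). It did not pass without wild-type replicate 2 or 3 or mutant replicate 1 or 2 (edgeR adjusted p 0.0973 to 0.144), nor with RLE library factors (0.0513).

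BRD13 was at 62.2, 36.8 and 48.1 CPM in the wild type and at 33.7, 42.4 and 24.7 CPM in the mutant. Wild-type replicate 2 lay below mutant replicate 2, so the ranges crossed, and both groups spread widely, with the highest library 1.69 times the lowest in the wild type and 1.72 times in the mutant. Its log2 fold change was -0.55 (95% interval -1.02 to -0.070; edgeR adjusted p 0.0887), and it passed the threshold without wild-type replicate 2 (0.0279), without mutant replicate 2 (0.0338) and in DESeq2 (adjusted p 0.0385). Without wild-type replicate 1 it was -0.34 (edgeR adjusted p 0.308), and -0.36 on leaving out mutant replicate 3 (0.228). Taking out the length trend gave -0.30 (edgeR adjusted p 0.197). BRD1, the nearest relative of BRD2, was at 17 to 23.8 CPM in the wild type and 15.8 to 24.8 CPM in the mutant, fully overlapping. The log2 fold change of BRD1 was -0.031 (95% interval -0.41 to 0.35; edgeR adjusted p 0.911), and its sign turned with length offsets (0.083).

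The make-up of the bromodomain family differed between the groups. BRD2 held 25.4%, 27.9% and 24.6% of the family's level per kb in the wild type and 36.1%, 35.8% and 41.5% in the mutant. BRD13 held 46.8%, 42.0% and 45.4% in the wild type and 33.8%, 33.7% and 29.3% in the mutant. Neither share overlapped between the groups, and they differed by 11.8 and -12.5 percentage points from wild type to mutant, while that of BRD1 was 29.3% ± 1.3 and 30.0% ± 0.707 (SD, n = 3 each). Shares of a family are tied to each other, and how often shares among other genes do not overlap was not computed. Of single tested genes, 41.3% had CPM values that did not overlap. Per kb, BRD13 thus held the highest share in every wild-type library and BRD2 in every mutant library, narrowly so in mutant replicates 1 and 2. In CPM, without division by length, BRD13 was the highest of the family in all 6 libraries. The summed level was similar and overlapped, at 27.8 ± 5.83 CPM per kb in the wild type and 26.4 ± 5.38 CPM per kb in the mutant (SD, n = 3 each).

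The BRIP genes, which encode BRM-interacting proteins, differed widely in level. BRIP2 fell, from 16.9, 13.6 and 18.3 CPM in the wild type to 12.5, 12.3 and 9.40 CPM in the mutant. All mutant values lay below all wild-type values, and mutant replicate 3 was lowest. The log2 fold change was -0.51 (SE 0.15; edgeR adjusted p 0.0329), and BRIP2 was the only 1 of the 3 genes that fell to pass with length offsets as well (-0.45; 0.0382). It did not pass without wild-type replicate 1 or 3 or mutant replicate 1 or 3 (edgeR adjusted p 0.0730 to 0.116). BRIP2 shares 373 exonic bases, 16.9% of its own, with AT5G17500 on the opposite strand, which was listed at 0 in all 6 libraries.

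BRIP1 was counted 28, 24 and 62 times in the wild type and 48, 44 and 32 times in the mutant. Its log2 fold change was 0.20 with a wide 95% interval from -0.64 to 1.03 (edgeR adjusted p 0.727). All of its counts were even numbers, as were 74.8% of values from 1 to 20 in the whole table, so the number of independent fragments is uncertain; with all counts halved the value was 0.19. The value moved to 0.72 without wild-type replicate 3 and to -0.025 without wild-type replicate 2. Since BRIP1 contributes little, the summed level of both genes followed BRIP2, at 8.01 ± 1.37 CPM per kb in the wild type and 5.90 ± 0.934 CPM per kb in the mutant (SD, n = 3 each), without overlap, where 41.3% of single tested genes did not overlap.

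The TPF genes, of the complex around CHR12 and CHR23, did not pass the threshold. TPF1 was at 28.3, 24.2 and 27.6 CPM in the wild type and at 30.9, 36.9 and 29.3 CPM in the mutant, without overlap. The log2 fold change was 0.28 (SE 0.11; edgeR adjusted p 0.102). With length offsets TPF1 was past the threshold as higher, at 0.45 (edgeR adjusted p 0.00738). It shares 69 exonic bases with ATAB2 on the opposite strand, which was at 42.5 ± 3.93 and 46.7 ± 3.38 CPM (SD, n = 3 each; edgeR adjusted p 0.351). TPF2 was at 19.9 to 23.6 CPM in the wild type and 17.2 to 25.7 CPM in the mutant, and its log2 fold change was -0.041 (95% interval -0.36 to 0.28; edgeR adjusted p 0.859), turning to 0.082 with length offsets.

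Because a ratio of 2 genes within a library does not depend on the library's size, the 8 pairs within families were compared as log2 count ratios. The groups did not overlap for 7 of the 8, where 40.8% of all pairs of tested genes showed no overlap. In the BRD and SYS families any 2 of the ratios fix the remaining ratio. The 8 are therefore not independent, and their count cannot be set against that share as 8 separate observations. The widest shift was that of BRD2 over BRD13. This ratio was -1.70, -1.41 and -1.70 in the wild type and -0.72, -0.73 and -0.32 in the mutant, a difference of 1.01 on the log2 scale. BRIP1 over BRIP2 differed by 0.81, though wild-type replicate 3 (-3.76) came close to the mutant values (-3.65 to -3.50). BRD1 over BRD13 differed by 0.51 and BRD1 over BRD2 by -0.50.

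TPF1 over TPF2 was 0.27, 0.28 and 0.40 in the wild type and 0.65, 0.52 and 0.76 in the mutant, a difference of 0.33. Relative to both other SYS genes SYS2 was higher in the mutant, since SYS1 over SYS2 differed by -0.25 and SYS2 over SYS3 by 0.32. SYS1 and SYS3, the most similar copies, differed least in their ratio, with 0.70 ± 0.093 in the wild type and 0.77 ± 0.113 in the mutant (SD, n = 3 each) and a difference of 0.066. These 2 genes are also close in exonic length (5325 and 5299 bases, with SYS2 at 4175). The part of length or of shared sequence in this was not tested. In an exact two-sided permutation test p was 0.1 for the 7 ratios without overlap (0.114 adjusted over the 8) and 0.5 for SYS1 over SYS3. The smallest p that 3 against 3 libraries allow is 0.1, so no ratio could pass 0.05. Ratios cancel library size but not length. For comparison, the log2 fold change of the second gene was subtracted from that of the first, both from the fit with length offsets. This gives no ratio per library, and neither overlap nor a p-value was computed for it. These differences had the same direction as the ratios. They were 0.82 for BRD2 over BRD13, 0.38 for BRD1 over BRD13, -0.44 for BRD1 over BRD2 and 0.53 for BRIP1 over BRIP2. For the other families they were 0.37 for TPF1 over TPF2, -0.22 for SYS1 over SYS2, 0.29 for SYS2 over SYS3 and 0.073 for SYS1 over SYS3.

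**Figure D3:**
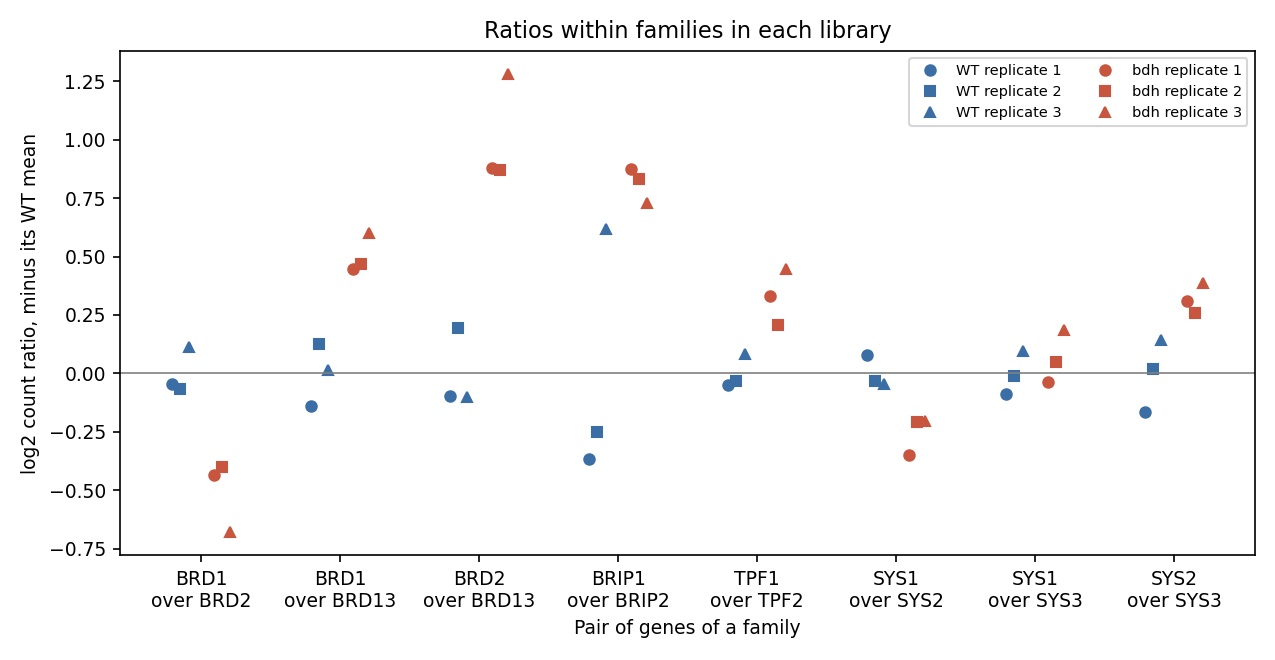
Log2 count ratio of each pair of genes of a family in each library, minus the wild-type mean of that ratio (y axis, log2 units); symbols are replicates and colours genotypes. BRD2 over BRD13 differs most between the groups (1.01), and SYS1 over SYS3 is the only pair whose groups overlap.

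Across libraries the longer genes had similar profiles. In wild-type replicate 1, 8 of the 10 genes lay above their own mean over the 6 libraries, and in mutant replicate 3, 9 of the 10 lay below. BRD13 and the SYS genes were highest in wild-type replicate 1 and lowest in mutant replicate 3, with SYS1 nearly as low in mutant replicate 1. These are also the libraries with the most positive and most negative length trend. BRD2 and TPF1, by contrast, were highest in mutant replicate 2 and lowest in wild-type replicate 2.

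**Figure D4:**
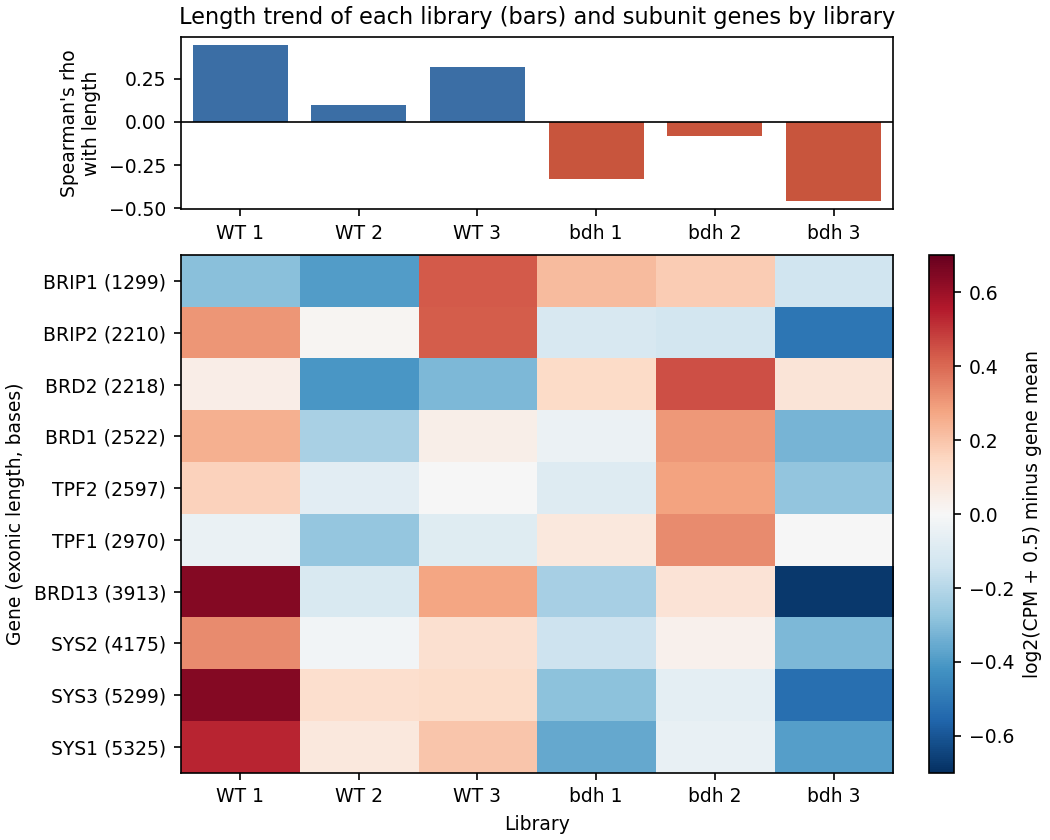
Top, Spearman's rho between exonic length and deviation from the gene mean in each library, over 16873 genes. Bottom, log2(CPM + 0.5) of each subunit gene minus its own mean (colour), with genes ordered by exonic length in bases; the 4 longest genes are highest in wild-type replicate 1, where rho is 0.447, and low in mutant replicate 3, where it is -0.460.

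Of the 16 other SWI/SNF genes listed, all tested, 5 passed the threshold, 1 higher and 4 lower. Of all tested genes 23.5% passed it, 12.1% higher and 11.3% lower. Without the mutated BDH1 and BDH2, which are among the 4 lower, it was 3 of 14, 1 higher and 2 lower. The median log2 fold change was -0.068, or -0.030 without BDH1 and BDH2. Besides these 2, the genes past the threshold were CHR23, an ATPase gene (1.60, edgeR adjusted p 0.000621), SWI3C, a core scaffold gene (-0.47, 0.0373), and SWP73B, a core subunit gene (-0.55, 0.0488). SWP73B was at -0.28 without wild-type replicate 1 (edgeR adjusted p 0.126), and its call was also lost without each mutant replicate in turn and with upper-quartile factors (0.0540). The call of SWI3C was lost without wild-type replicate 1 or 3 or mutant replicate 1 or 3 (edgeR adjusted p 0.0978 to 0.133). Of the ATPase partners, CHR23 is given above; the others, named here after their values were seen, did not pass in edgeR: BRM had a log2 fold change of -0.47 (edgeR adjusted p 0.175), SYD of -0.55 (0.0841) and CHR12 of 0.24 (0.350). In the authors' deposited table SYD has an adjusted p of 0.0320, at a log2 fold change of -0.44. SWI3D, likewise named after its values were seen, has 0.0227 there, at -0.43. It was not past the threshold in edgeR (-0.51, adjusted p 0.0532), nor with length offsets (-0.28, edgeR adjusted p 0.137). In the fit with length offsets CHR12 was higher at 0.48 (edgeR adjusted p 0.0232), SWI3C was no longer past the threshold (-0.32; 0.0664), and BRM and SYD were at -0.14 and -0.21, not past it.

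The genes whose profile over the 6 libraries lay nearest to the summed profile of each family were found by the root mean square difference of centred log2 values. For the SYS genes these were TOR1 (AT4G27060), a microtubule-associated protein gene, at 0.012 log2 units, and CDKE;1 (AT5G63610), the kinase of the Mediator complex, at 0.025, where the median over 12617 genes was 0.32. For the TPF genes they were AT3G15520, a cyclophilin-like gene (0.025), and PDIL1-1, a protein disulfide isomerase gene (0.037). For the BRD genes they were PSBP-1, of photosystem II (0.041), and AT5G41020, a myb family gene (0.047). For the BRIP genes they were ABCG37, a transporter gene (0.056), and AT2G40760 (0.058). How near the nearest profile of other genes lies was not computed, and nothing further is read from these.

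Under the authors' own model, the authors' deposited table has an adjusted p under 0.05 for 5 of the 10 genes. The share of all 23350 genes in it that lie under 0.05 was not computed, so this count has no background here. There, in the authors' deposited table, the log2 fold change is -0.49 for SYS1 (adjusted p 0.00360), -0.55 for SYS3 (0.00551), -0.45 for BRIP2 (0.0112), 0.38 for BRD2 (0.0287) and -0.43 for BRD13 (0.0399). For SYS2 and TPF1 the authors' deposited table gives -0.25 (adjusted p 0.114) and 0.23 (0.122). Both analyses rest on the same libraries. DESeq2 as run here gave -0.55 for SYS1 (adjusted p 0.00346) and -0.62 for SYS3 (0.0053). For both, the deposited fold change is smaller in size at a similar adjusted p. Whether the deposited fold changes were shrunk was not examined, so their sizes are not compared with those of edgeR.

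**Figure D5:**
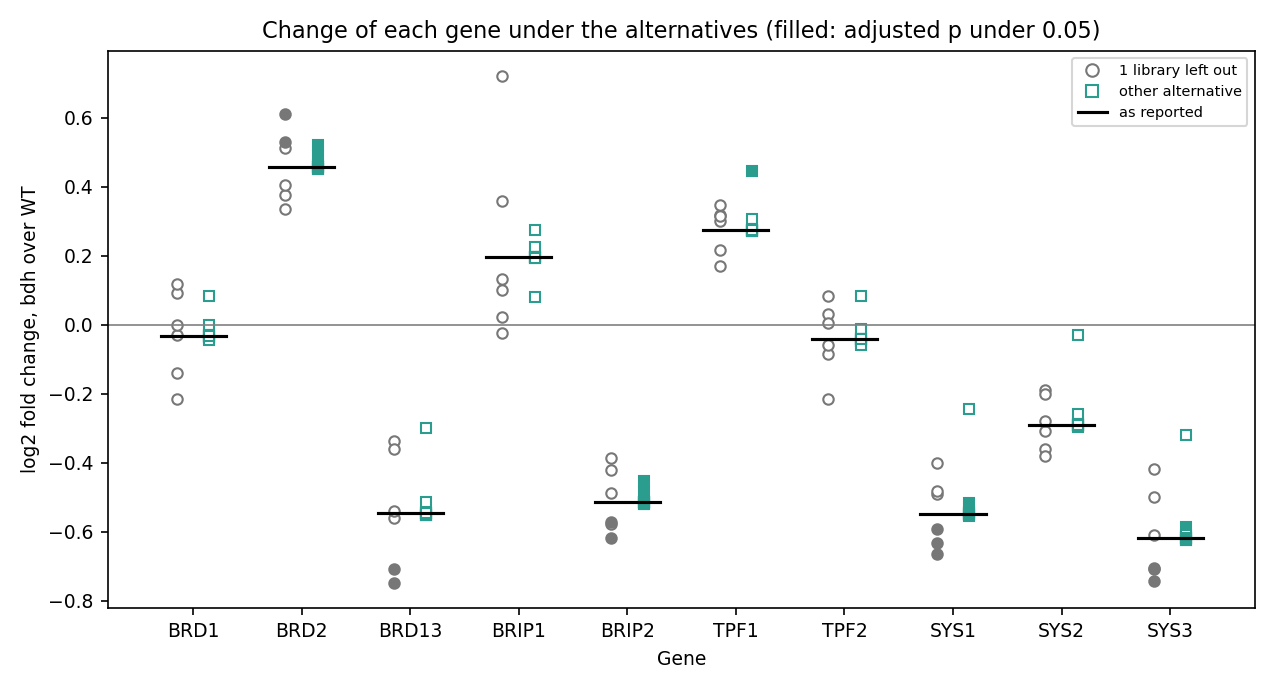
Log2 fold change of each gene, mutant over wild type (y axis), as reported (bars), with 1 library left out (circles) and under the other alternatives (squares); filled symbols have an adjusted p under 0.05. BRD2, BRD13, BRIP2, TPF1 and the SYS genes keep their direction throughout, while BRD1, BRIP1 and TPF2 cross 0, and the square nearest 0 for each SYS gene is the fit with length offsets.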

How the data were processed

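Strand-specific libraries of polyadenylated RNA were sequenced on a DNBSEQ platform, per the labels' protocols. The submitters' processing notes name STAR 2.7.10b, featureCounts of Subread 2.0.3, DESeq2 1.38 and the build TAIR10. The authors' deposited counts are whole numbers for every gene and library, not normalized. Their deposited comparison holds a log2 fold change and its error, a raw and an adjusted p-value, and the mean normalized count (a signal over all libraries), per the file headers.

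Counts were analysed here with edgeR 4.0.16 in R 4.3.3: filterByExpr, TMM factors, glmQLFit and glmQLFTest, WT 1 to 3 against bdh 1 to 3, adjusted over all 20791 tested genes. The standard error is the absolute log2 fold change over the square root of F. 1 CPM stands for 40.9 to 45.0 counts, before TMM scaling. Exonic lengths, positions and sequences came from TAIR10.1 (RefSeq). Length offsets came from a natural spline (4 df) of each library's deviations on log2 exonic length, fitted on genes over 1 in mean log2 CPM. Ratios used a prior count of 0.5. Proteins were aligned with Biopython 1.88 (BLOSUM62, gap penalties 11 and 1). The replicates of a group differed by more than sampling noise (chi-square per degree of freedom 15.8 or more).

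Named by rule were the 10 genes, the other SWI/SNF genes past the threshold, genes overlapping a member, and for each family the 2 nearest profiles among genes whose average log2 CPM was 3 or more. Listed markers were also named, and BRM, SYD, CHR12 and SWI3D were named after their values were seen. The members, lists and alternatives were chosen with earlier results of these data known. Alternatives were DESeq2 1.42.0, library factors by RLE or upper quartile, no low-count filter, a minimum of 10 counts per library, a replicate block, leaving out each library, length offsets and counts halved. For shares they were counts without length, for ratios a prior count of 2. The fit was also run on simulated counts that held no length trend and no deviation shared between genes of a library. That run checks the code only and lends no support to the calls made here.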

Additional observations from a re-analysis of the deposited data

How the results depend on the processing

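Over the alternatives run, BRD2, BRD13, BRIP2, TPF1 and the SYS genes kept their direction, and so did all 8 ratios. The log2 fold change ran from 0.34 to 0.61 for BRD2, -0.62 to -0.39 for BRIP2, -0.66 to -0.25 for SYS1 and -0.74 to -0.32 for SYS3. Without 1 library each, that of BRD1 ran from -0.21 to 0.12, BRIP1 from -0.025 to 0.72 and TPF2 from -0.22 to 0.085, and with length offsets BRD1 (0.083) and TPF2 (0.082) turned to higher; none of these passed the threshold in any alternative. The cause was not tested.

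In edgeR fits without 1 library, 0 to 4 members passed (0 to 1 higher, 0 to 4 lower), of the 16 other SWI/SNF genes 3 to 7 (2 to 6 lower), and of all genes 1811 to 5558 (1066 to 2842 higher, 745 to 2716 lower). The counts of all genes and members were 2373 and 1 on leaving out wild-type replicate 1 and 2682 and 2 for wild-type replicate 3. They were 1811 and 0 for mutant replicate 1, and 3373 and 1 for mutant replicate 3. Without mutant replicate 1, 5 members had an unadjusted edgeR p under 0.05, and the share of all genes that did was not computed for that fit. In the fit on all 6 libraries this held for 7 members and for 8044 of all 20791 genes. DESeq2 called 5 members, and 5640 of the 22436 genes with an adjusted p in that fit. With RLE factors 0 members passed as higher, where 2482 of all 20791 genes did. With at least 10 counts in every library 3 other SWI/SNF genes passed, 2 lower, the BDH loci then not being tested. Of all 19667 genes in that fit 4748 passed, 2295 lower. With length offsets 2 members were higher and 1 lower, and 2 other SWI/SNF genes were higher. Of all 20693 genes in that fit 2110 were higher and 2042 lower. On counts without length the share of BRD1 was 2.35 percentage points higher in the mutant, in place of 0.673.

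Same-numbered libraries did not deviate together (correlations 0.00192, -0.56 and -0.306), and no sample correlated best with its own number. The fit with a replicate block gave 0 members past the threshold (0 higher, 0 lower) and 3 other SWI/SNF genes (2 lower). Of all genes 2090 passed in it (1172 higher, 918 lower). An unadjusted edgeR p under 0.05 was found for 5 members, and the share of all genes that had one was not computed for that fit. Depth limits BRIP1 most, with at most 62 counts in a library.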
